A study of Mus musculus with 3 samples.

Results

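The spliceosomal small nuclear RNA (snRNA) genes described here are the 42 genes, of 1383 annotated as snRNA and 55536 genes in all, whose mean expected count over 3 libraries was at least 1. The libraries are ribosomal-RNA-depleted total RNA of the nuclear fraction, which the labels also call nucleoplasmic, of bone-marrow-derived macrophages. These are primary cells grown from the marrow of C57BL/6J mice, with no transgene or deletion given in the labels. All 3 were treated with Lipid A, the endotoxin part that activates the receptor TLR4, at 100 ng/ml for 15 min, and there is no untreated group, so no effect of Lipid A can be read. They are labelled as biological replicates 1, 2 and 3 under a single donor entry, which means that the differences among them may be partly technical. The starting amount of RNA was 500 ng for replicate 2 and 1000 ng for replicates 1 and 3, and the stated size range is 250 to 400 throughout. Depth over annotated genes was 18516063 expected counts for replicate 1, 17345644 for replicate 2 and 20947006 for replicate 3. The lowest readable level was taken as 3 counts, which is 0.162, 0.173 and 0.143 CPM, the count scaled to equal library totals. The macrophage label was borne out by 9 of 9 macrophage markers, whose summed level was 2782 to 3786 TPM, a level corrected for gene length and depth. The summed level of the marker lists of 6 other cell types was 0 to 6.32 TPM, with Cd3e, Cd2, Ly6g and Pdgfra at 0. All 3 endothelial markers had at least 10 counts, at a summed 4.80 to 5.18 TPM. So did 1 of 3 erythroid and 1 of 3 fibroblast markers, and none of the T cell, B cell and neutrophil markers.

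Spliceosomal snRNAs are short, abundant, untranslated RNAs that work inside ribonucleoprotein particles. U1 pairs with the 5′ splice site and U2 with the branch site of most introns, and U4, U5 and U6 join them as the tri-snRNP. U11 and U12 take the places of U1 and U2 at a rare class of introns, those of the minor spliceosome. Most are made by RNA polymerase II, trimmed with the help of the Integrator complex, exported, wrapped in a ring of Sm proteins and returned to the nucleus. Their genes exist in many copies, and genomes hold many more decayed copies.

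Members were put in families by sequence, since all but 6 carry only a predicted-gene symbol. A gene was placed with its nearest gene of an Rnu symbol where at least 60% of the letters matched, a limit set after the values were seen. On that basis 24 members were closest to the Rnu1 genes (U1), 13 to Rnu2-10 (U2) and 2 to Rnu12 (U12). Named genes of different families matched at 46.6% (Rnu1a1 and Rnu2-10), 50% (Rnu1a1 and Rnu12) and 50.8% (Rnu2-10 and Rnu12). The family of members just above the limit of 60%, such as Gm25184 (61.6%) and Gm22214 (62.2%), is therefore uncertain. Another 3, Gm24265, Gm24407 and Gm25541, were within that limit of no named gene. The first 2 are 98.6% identical to each other. No gene of the annotation carries a symbol beginning with Rnu4, so nothing here can be assigned to U4 by name and this method could not recognise a U4 gene. The lack of a family for Gm24265 and Gm24407 therefore does not say whether they are U4 genes, which was not tested. No member passed the limit for U5, U6, U7 or U11; Gm25541 was nearest to Rnu6, at 53.2%.

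The 4 sequences that lead each family are shown first because the members with the most counts are these genes or near copies of them. They are the GENCODE M21 transcripts of Rnu1a1 (GRCm38 chr11:87422867-87423030, plus strand), Rnu2-10 (chr11:101658238-101658428, plus), Rnu12 (chr15:83149644-83149794, plus) and Gm24265 (chr5:115489459-115489599, plus). Capitals mark the letters searched for. These are ACTTACCTG, which pairs with the 5′ splice site in U1, GTAGTA, which pairs with the branch site in U2, GTAAGGAA, which does so in U12, and ATTTNTG, the core of the site bound by the Sm ring.
Rnu1a1: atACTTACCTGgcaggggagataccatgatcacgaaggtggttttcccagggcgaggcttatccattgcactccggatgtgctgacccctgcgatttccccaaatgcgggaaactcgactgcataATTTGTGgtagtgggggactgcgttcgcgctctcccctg
Rnu2-10: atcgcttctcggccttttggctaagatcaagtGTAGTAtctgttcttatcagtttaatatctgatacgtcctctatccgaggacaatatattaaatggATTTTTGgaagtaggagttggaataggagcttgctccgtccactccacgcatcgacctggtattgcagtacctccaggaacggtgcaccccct
Rnu12: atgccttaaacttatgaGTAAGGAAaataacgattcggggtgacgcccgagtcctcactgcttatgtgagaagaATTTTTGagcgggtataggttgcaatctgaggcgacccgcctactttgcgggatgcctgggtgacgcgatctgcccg
Gm24265: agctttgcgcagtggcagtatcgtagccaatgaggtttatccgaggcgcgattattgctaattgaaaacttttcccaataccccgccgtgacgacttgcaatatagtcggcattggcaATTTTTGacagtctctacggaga

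The variants that hold most of the remaining counts follow, with capitals at the letters that differ from Rnu1a1 in the U1 family, from Rnu2-10 in the U2 family and from Gm24265 in the last. They show how few letters separate the copies between which the reads had to be divided. Gm22513 (chr12:54696782-54696945, plus) differs from Rnu1a1 by T60C alone, positions being counted from 1 at the 5′ end of Rnu1a1. Gm22614 (chr3:96488729-96488893, plus) and Rnu1b2 (chr3:96374021-96374185, plus) carry T60C, T62C, C73T, C74G, A77G and 1 inserted letter, and Rnu1b2 also C33T. Gm23472 (chr1:72236946-72237136, plus) differs from Rnu2-10 by G109C, counted along Rnu2-10, and Gm25939 (chr1:72255008-72255198, plus) by T69C, C78T and G109C. Gm24407 (chr5:115490254-115490394, plus) differs from Gm24265 by G88A and C99A.
Gm22513: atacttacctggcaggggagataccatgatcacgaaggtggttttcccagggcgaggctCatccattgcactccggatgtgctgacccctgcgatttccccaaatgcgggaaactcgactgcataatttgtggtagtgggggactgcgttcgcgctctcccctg
Gm22614: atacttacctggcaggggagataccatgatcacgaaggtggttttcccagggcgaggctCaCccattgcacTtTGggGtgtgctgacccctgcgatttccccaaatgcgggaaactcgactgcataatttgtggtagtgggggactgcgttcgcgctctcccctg
Rnu1b2: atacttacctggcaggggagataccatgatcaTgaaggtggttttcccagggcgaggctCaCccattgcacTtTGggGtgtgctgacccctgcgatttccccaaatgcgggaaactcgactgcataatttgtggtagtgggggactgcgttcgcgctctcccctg
Gm23472: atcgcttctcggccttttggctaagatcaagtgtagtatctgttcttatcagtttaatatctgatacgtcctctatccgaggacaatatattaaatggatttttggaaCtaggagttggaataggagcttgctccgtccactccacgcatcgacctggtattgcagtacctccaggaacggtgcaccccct
Gm25939: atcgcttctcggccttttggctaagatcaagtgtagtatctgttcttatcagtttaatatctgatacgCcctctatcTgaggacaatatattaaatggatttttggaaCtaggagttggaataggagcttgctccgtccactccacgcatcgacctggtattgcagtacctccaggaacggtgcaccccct
Gm24407: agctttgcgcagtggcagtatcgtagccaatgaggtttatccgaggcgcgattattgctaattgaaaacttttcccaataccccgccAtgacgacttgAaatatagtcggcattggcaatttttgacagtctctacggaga

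The motifs were searched on the strand of the transcript only, and no match overlapped another in the 4 sequences with capitals. ACTTACCTG stood in 19 of 24 U1 members, and in 55 of all 1383 snRNA genes (3.98%). GTAGTA stood in 12 of 13 U2 members, and in 51 of all snRNA genes (3.69%). GTAAGGAA stood in both U12 members, and in 9 of all snRNA genes (0.651%). ATTTNTG stood in 30 of the 30 members averaging 10 counts or more, in 9 of the 12 with a mean of 1 to 10, and in 283 of all snRNA genes (20.5%). Families were set by likeness to genes that hold these letters, and 28 of the 30 are at least 95% identical to a named gene. Most matches were thus fixed in advance, and nothing is read from their number. In genes of the same families outside the members, ACTTACCTG stood in 34 of 179 (U1), GTAGTA in 13 of 31 (U2) and GTAAGGAA in 4 of 4 (U12). There ATTTNTG stood in 78 of 179 (U1), 8 of 31 (U2) and 2 of 4 (U12). A match is a description of these letters and not of a bound site.

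Copies shared most of the signal. The 42 members hold 28 distinct sequences. Of the members, 22 have a sequence of their own and 20 fall into 6 sets of identical copies, and those 20 held 71.6% of all member counts. Reads of identical copies cannot be assigned to one of them, so levels are given below for the set, and a value per copy is the authors' division of it. The authors' gene table gives a posterior standard deviation for each count. For the 20 copies it was 21.7 to 93.2% of the count in each library, and for 12 members it was 0 in all libraries. The expected counts of all members are plotted by library.

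**Figure D1:**
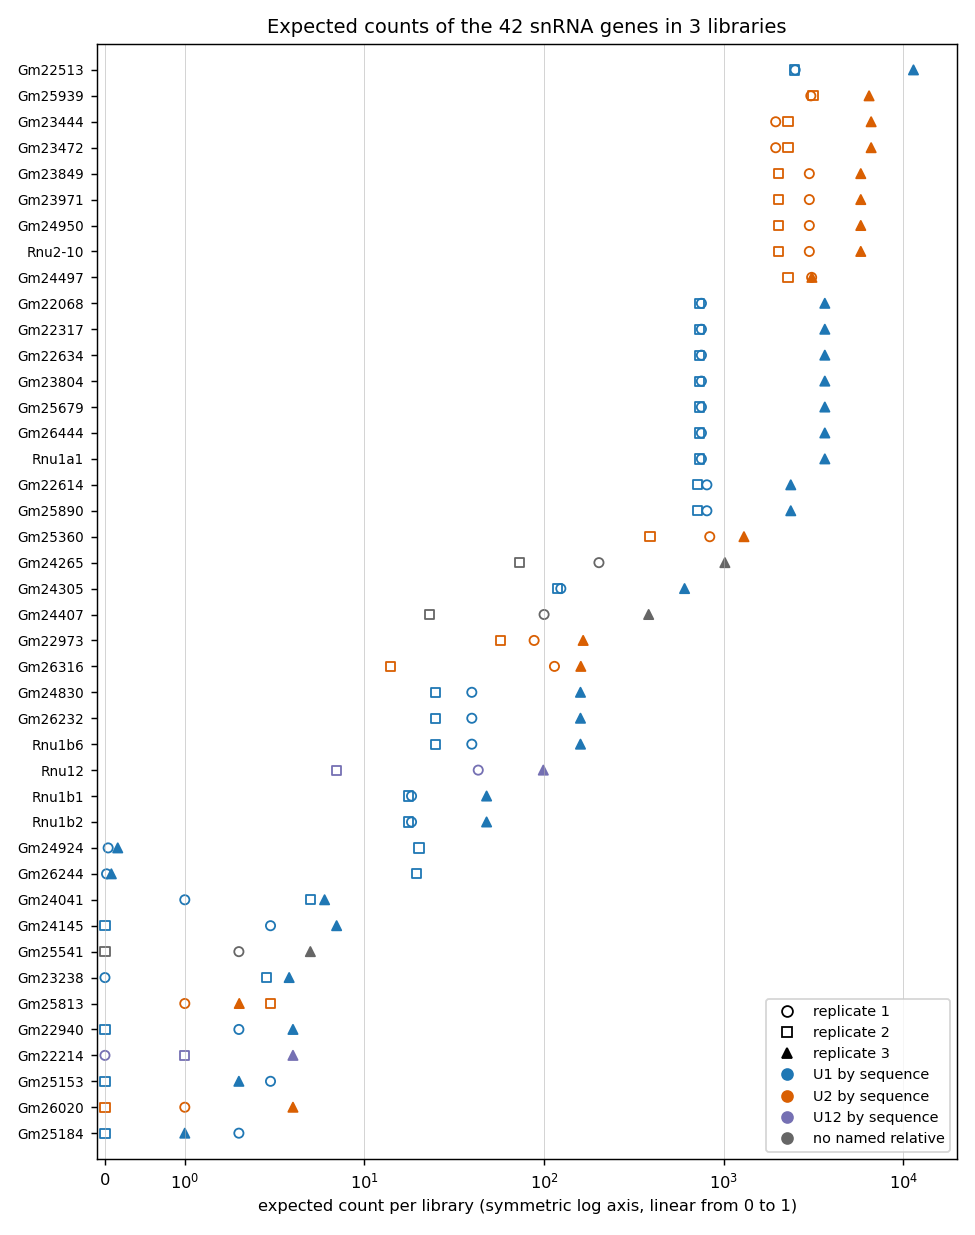
Expected counts of the 42 snRNA genes (rows, highest mean at the top) in replicates 1 (open circles), 2 (open squares) and 3 (filled triangles), on a symmetric log axis that is linear from 0 to 1. Colours give the family by sequence. Identical copies carry equal counts, and replicate 3 lies to the right in most rows above Gm24924.

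Together the members took 0.179%, 0.161% and 0.439% of the expected counts of replicates 1, 2 and 3, a mean of 0.260 ± 0.156% (SD, n = 3). The 95% Wilson intervals of the 3 shares were 0.177 to 0.181%, 0.159 to 0.163% and 0.436 to 0.442%, which cover counting error only. Replicate 3 thus lay far outside the counting error of the others. Without replicate 3 the mean share was 0.170%. Corrected for length, the members took 13.9 ± 1.34% of all TPM (SD, n = 3), a scale that divides by the effective lengths given below. In the authors' second table, described below, the share of TPM was far lower. Its log2 ratio to the first was -3.30, -2.49 and -4.08 in replicates 1, 2 and 3. The length-corrected share therefore depends on the table used.

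The U2 family held the most counts of any family. Its 13 members summed to 1245, 1067 and 2271 CPM in replicates 1, 2 and 3, and to 59815, 63784 and 49756 TPM. The U1 family, whose RNA recognises the 5′ splice site, summed to 522, 538 and 2047 CPM and to 58063, 77351 and 91442 TPM. Both families were highest in replicate 3 on the CPM scale, and U2 was lowest there on the TPM scale.

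The ratio of U2 to U1 changed with the scale and with the library. On counts it was 2.39, 1.98 and 1.11 in replicates 1, 2 and 3, and on TPM it was 1.03, 0.825 and 0.544. U2 therefore lay above U1 in all 3 libraries by counts and in 1 of 3 by TPM. Rnu2-10 is 191 bases long and Rnu1a1 164 bases. The first table gives Rnu2-10 effective lengths of 15.2, 13.9 and 29.7 bases, and Rnu1a1 6.52, 5.76 and 14.5 bases. In the second table these were 50.7, 35.3 and 53.6 bases for Rnu2-10 and 35.2, 27.1 and 37.5 bases for Rnu1a1. The U2 to U1 ratio on the TPM of the second table was 1.73, 1.55 and 0.896. Replicate 3 had the lowest ratio on each of these scales.

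Rnu2-10 and its 3 identical copies Gm23849, Gm23971 and Gm24950 held 11982, 8078 and 23172 expected counts in replicates 1, 2 and 3. That was 48.1 ± 4.20% of the U2 counts (SD, n = 3), and 6930 TPM on average per copy. The pair Gm23444 and Gm23472, which carry G109C, held 3894, 4554 and 13230 counts, or 23.1 ± 5.61% of the family. The share of this pair was 16.9%, 24.6% and 27.8% in the 3 libraries. In the second table it was 21.8 ± 2.46% of the family (SD, n = 3).

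Gm25939 has a sequence of its own, and its posterior standard deviation stayed below 1 count. It held 3054, 3137 and 6443 counts, an average of 8491 ± 2094 TPM (SD, n = 3), and 14.6 ± 2.06% of the U2 counts. Gm24497, which differs from Rnu2-10 by G109C and C186A, held 3085, 2277 and 3097 counts. It was the only member with at least 10 counts whose 3 libraries lay within a log2 range of 0.32. Its posterior means were 2601, 2254 and 4389 with standard deviations of 1043, 564 and 1627, so its even level in the first table is uncertain. In the second table it had 3272, 3301 and 6593 estimated counts, with replicate 3 again highest.

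Gm25360, with C78T, A95G, G109C and C154T, held 836, 389 and 1296 counts and is unambiguous in the table, with a posterior standard deviation of at most 0.03 counts. Gm22973 and Gm26316 held 103 and 96.1 counts on average. Gm26316, a single C170T away from Rnu2-10, had 114, 13.9 and 160 counts in replicates 1, 2 and 3 and was low in replicate 2.

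The letter at position 109 separated the U2 genes by place. G109C was found in 5 of the 11 U2 members compared letter by letter with Rnu2-10. These 5 include every member of the cluster on chromosome 1 and none of the cluster of 5 genes on chromosome 11 around Rnu2-10; the fifth, Gm23444, lies elsewhere on chromosome 11. Genes with G109C held 47.1%, 56.0% and 50.6% of the U2 counts in replicates 1, 2 and 3, a mean of 51.2 ± 4.44%. In the second table the mean was 50.6 ± 3.18% (SD, n = 3 each). About equal parts of the U2 counts thus came from either form in every library and in both tables.

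In the U1 family, Rnu1a1 and its 6 identical copies (Gm22068, Gm22317, Gm22634, Gm23804, Gm25679 and Gm26444) held 5259, 5140 and 25576 counts in replicates 1, 2 and 3. That was 54.4%, 55.0% and 59.6% of the U1 counts, and 6164 ± 1638 TPM per copy (SD, n = 3). By posterior means the share of the set was 48.8%, 45.7% and 53.8%, lower in each library, so the level of the set is also uncertain. Per copy the count was 751, 734 and 3654. The counts of replicates 1 and 2 were close, and replicate 3 stood apart.

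Gm22513, the single-letter variant with T60C, was the single gene with the highest mean count and the highest TPM, although the sets of Rnu2-10, Rnu1a1 and Gm23444 each held more counts in sum. It held 2498, 2486 and 11382 counts, and 15123, 20722 and 24372 TPM, a mean of 20072 ± 4659 TPM (SD, n = 3). Its posterior standard deviation was below 1 count in every library. Its share of the U1 counts was 25.9%, 26.6% and 26.5%, a mean of 26.3 ± 0.416%, with Wilson intervals of 25 to 26.7%, 25.7 to 27.5% and 26.1 to 27.0%. Those intervals overlap and cover counting error only, so no difference between libraries is read from them, and equality is not shown.

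The Rnu1b genes code for the embryonic form of mouse U1. The 9 members nearest to them held 18.4%, 16.6% and 12.4% of the U1 counts in the 3 libraries, lowest in replicate 3. The Wilson intervals were 17.6 to 19.1%, 15.8 to 17.3% and 12.1 to 12.7% and did not overlap. Posterior means (18.3%, 16.6% and 12.4%) and the second table (18.9%, 16.7% and 12.4%) gave the same order. Most of it came from the identical pair Gm22614 and Gm25890, with 1612, 1436 and 4723 counts, or 14.4 ± 2.97% of U1 (SD, n = 3).

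The genes that bear the Rnu1b name contributed little. Rnu1b6 with its identical copies Gm24830 and Gm26232 held 119, 74.5 and 478 counts in replicates 1, 2 and 3, or 1.05 ± 0.224% of U1. Rnu1b1 and Rnu1b2, which are identical, held 36.6, 35.3 and 95.7 counts together, or 0.327 ± 0.0895% (SD, n = 3). Per copy that was 18.3, 17.6 and 47.9 counts. Gm24305, which differs from Rnu1a1 by A26G, held 124, 119 and 605 counts.

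T60C, the change of Gm22513, was carried by all the Rnu1b-related members that were compared. It stood in 8 of the 16 U1 members compared with Rnu1a1. Together these held 44.2%, 43.2% and 38.9% of the U1 counts in replicates 1, 2 and 3, a mean of 42.1 ± 2.80% (SD, n = 3). The make-up of both families is drawn by distinct sequence.

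**Figure D2:**
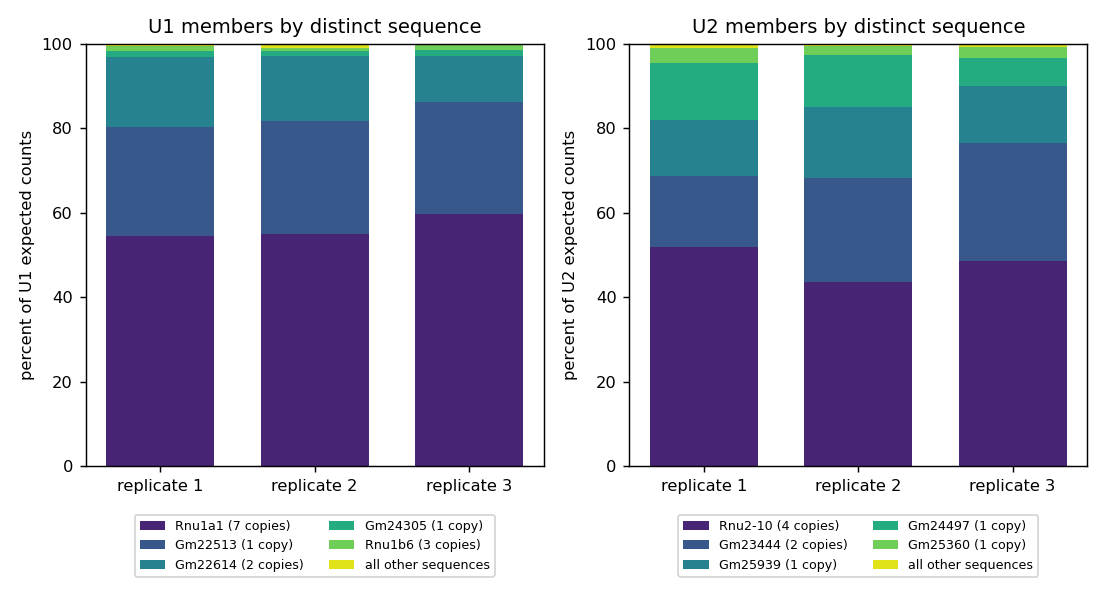
Percent of the expected counts of the U1 family (left) and the U2 family (right) held by each distinct sequence in the 3 libraries; each bar is 1 library, and the legend gives the first-named gene and its number of identical copies. Rnu1a1 with its copies and Rnu2-10 with its copies form the largest block of every bar, and the block of Gm22614 is smallest in replicate 3.

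Rnu12, the minor-spliceosome snRNA that pairs with the branch site, had few counts in the first table and many more in the second. It had 43, 7 and 99 counts in replicates 1, 2 and 3, with exact Poisson intervals of 31.1 to 57.9, 2.81 to 14.4 and 80.5 to 121, and a mean of 301 ± 180 TPM (SD, n = 3). The intervals of the libraries do not overlap, and replicate 2 was lowest. Other short genes were also low in replicate 2, as given below, and the reason was not tested. The other U12 member, Gm22214, is 62.2% identical to Rnu12 and had 0, 1 and 4 counts. Together they made up 0.131%, 0.0287% and 0.114% of the counts of the U1, U2 and U12 members, with Wilson intervals of 0.0975 to 0.177%, 0.0146 to 0.0567% and 0.0938 to 0.138%. The mean was 0.0912 ± 0.0549% (SD, n = 3). In the second table Rnu12 had 576, 224 and 1103 estimated counts, and the mean minor-spliceosome share was 1.06%. Rnu11, the minor-spliceosome counterpart of U1, is 134 bases long and was listed at 0 in every library of both tables.

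Gm24265 and Gm24407, the neighbouring 141-base genes without a named relative, differed more between libraries than any other members with at least 10 counts. Gm24265 had 202, 73 and 1015 counts and Gm24407 100, 23 and 382 in replicates 1, 2 and 3. Their log2 CPM ranged over 3.64 and 3.82. Neither has any posterior spread in the table. Gm24265 held 71.6 ± 4.84% (SD, n = 3) of the counts of the 3 members without a family, so the proportion of the pair varied far less than its level.

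Most members sit in clusters. Genes of one family within 1000 kb of each other formed 6 clusters, which hold 27 of the 42 members and 92.5% of their counts. The cluster on chromosome 12 (chr12:54696782-54738622) has 7 U1 genes in 41.8 kb and took 344, 362 and 1444 CPM in replicates 1, 2 and 3. The cluster on chromosome 3 (chr3:96328425-96488893) has 7 U1 genes in 160 kb, all of them nearest to a Rnu1b gene, and took 95.4, 89.1 and 253 CPM. Rnu1a1 and Gm22068 lie 4.01 kb from end to end on chromosome 11 within introns of Tex14. The Rnu2-10 cluster (chr11:101604850-101658428) has 5 U2 genes in 53.6 kb with 653, 466 and 1114 CPM. The cluster on chromosome 1 (chr1:72226240-72255198) has 4 U2 genes in 29.0 kb with 482, 466 and 833 CPM. Since identical copies lie in more than one cluster, as those of Rnu1a1 do on chromosomes 11 and 12, the division between clusters is that of the program that counted them.

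**Figure D3:**
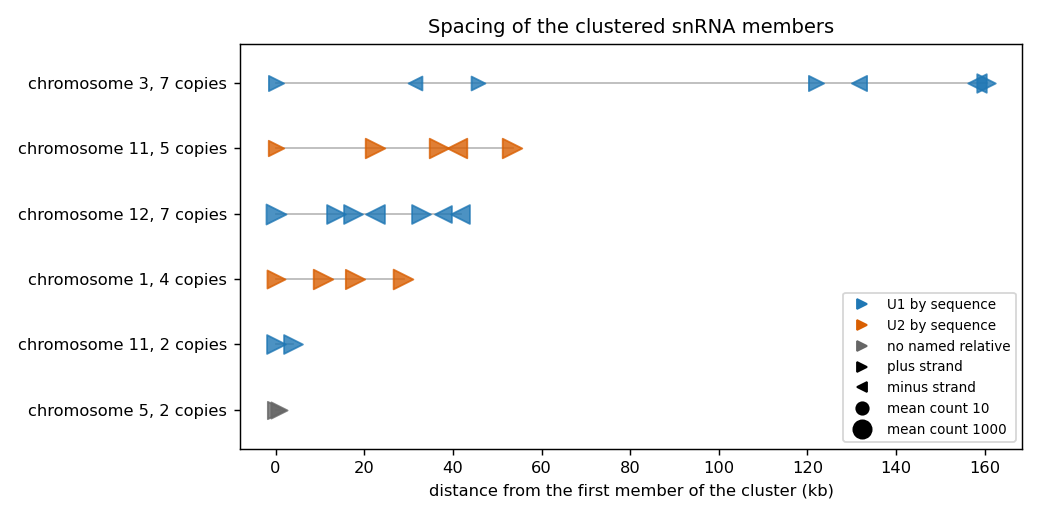
Distance of each clustered member from the first member of its cluster (kb), for 6 clusters (rows); triangles point along the strand, their size grows with the log10 of the mean count and their colour gives the family. The cluster on chromosome 3 spans 160 kb, and that on chromosome 5 holds the 2 genes without a named relative.

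The members with few counts had another setting. None of the 12 members with a mean of 1 to 10 counts lies in a cluster. Of these, 9 lie within protein-coding genes, 7 of them on the same strand, against 4 of the 30 members with at least 10 counts, 3 on the same strand. Their median identity to the nearest named gene was 74.8%, against 100% for the 30. Gm24041 lies in an intron of Tmem65, Gm24145 in an intron of Zc3h7a, Gm25153 in an intron of Bcar3 and Gm25184 in an exon of Tpd52l2, all on the strand of the host. The sources used here do not say whether the counting used strand, so reads of the host transcript and of the snRNA copy were not told apart. Just inside the limit of 1 were Gm22214, Gm25153 and Gm26020, tied at a mean of 1.67 counts, and Gm25184 with 1. Just outside lay Gm22042 with 0.67 and Gm26110 and Gm25926 with 0.667 each.

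The second table, made by a program that estimates counts per transcript, was set beside the first as a share of each table's total. Members took 0.216% of the counts on average in the second table and 0.260% in the first. The log2 ratio of the shares, second over first, was -0.23 ± 0.10 (SD, n = 3) and negative in 3 of 3 libraries. The first table chose the members, so this is a description and no p is read from it. Over all 1383 snRNA genes the log2 ratio was -0.08 ± 0.18 (SD, n = 3), at 0.03, 0.02 and -0.29 in replicates 1, 2 and 3. Of 40 members with a mean of at least 10 in either table, 11 (27.5%) were at least 2-fold higher in the second, where 40.3% of all 24748 genes tested were. Of these 11, 10 passed the limit of 10 through the second table alone, so the count is no support for a difference. None was at least 2-fold lower, where 0.521% of all genes were. Their median log2 ratio was -0.17, against 0.40 over all genes.

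The 12 low members all had log2 ratios of 1.16 to 5.60. They were set apart as low by the first table, which favours such ratios, and nothing is read from their number. Of all 5453 genes with a mean of 1 to 10 in the first table, 48.2% were at least 2-fold higher in the second. Gm23238 had 95.04, 11.1 and 623 estimated counts in the second table, against 0, 2.85 and 3.81 expected counts in the first (log2 ratio 5.60). It is 97.6% identical to Rnu1a1. Gm24041 had 100, 189 and 113 in the second table, against 1, 5 and 6 in the first (4.15). Gm25153 had 66, 53 and 30, against 3, 0 and 2 (3.71), and Gm25541 had 38, 18 and 110, against 2, 0 and 5 (3.52). For these 4 genes the second table was higher in every library.

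Gm24924 and Gm26244, both on chromosome 18 in introns of Ss18 and Rock1 and 1 letter from Rnu1a1, depended on the estimate used. In the first table Gm24924 had 0.04, 20.1 and 0.16 expected counts in replicates 1, 2 and 3, and posterior means of 304, 290 and 1189. Its estimated counts in the second table were 94.7, 274 and 362 (log2 ratio 4.22). Gm26244 had 0.02, 19.5 and 0.08 expected counts and posterior means of 241, 625 and 1297, and 0, 89.0 and 0.192 estimated counts in the second table. For both genes the expected counts lay far below the posterior means in every library, so no level can be given for either.

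Among the 30 members with at least 10 counts, Rnu12 alone was over 2-fold higher in the second table, where 11.2% of all 15876 genes of that level were. It had 576, 224 and 1103 estimated counts in the second table, against 43, 7 and 99 expected counts in the first, a log2 ratio of 3.12. As a ratio of CPM this was 9.78, 18.3 and 7.61 in replicates 1, 2 and 3. Gm24265 had 575, 356 and 1663 estimated counts, against 202, 73 and 1015 expected counts, or CPM ratios of 2.08, 2.79 and 1.12. For Gm24407 these ratios were 1.55, 1.90 and 1.08. The Rnu1a1 set had ratios of 0.803, 0.812 and 0.689 and, over the library means, the lowest log2 ratio of the members, -0.46. Gm24497, of 191 bases, had ratios of 0.775, 0.830 and 1.46, so the 2 tables differed on it in either direction.

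**Figure D4:**
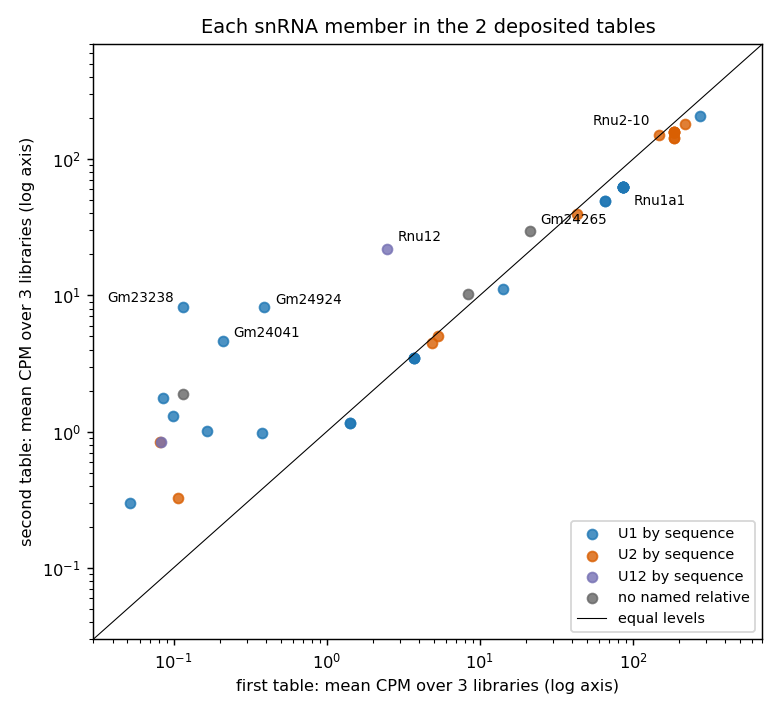
Mean CPM over 3 libraries of each of the 42 members in the second table (vertical, log axis) against the first table (horizontal, log axis), coloured by family, with a line of equal levels. The 12 low members and Rnu12 lie above the line, and the copies of Rnu1a1 lie below it at a log2 ratio of -0.46.

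Genes shorter than every member show where the first table stops. It gives an effective length of 0 to every snRNA gene of at most 129, 131 and 119 bases in replicates 1, 2 and 3, and 1074 of the 1383 genes had 0 in all libraries. The mean fragment lengths estimated from that table were 228, 222 and 187 bases. The shortest member has 126 bases, and the 1093 snRNA genes below that include no member. In the second table these 1093 held 11.2%, 10.7% and 3.59% of the snRNA counts in replicates 1, 2 and 3. Rnu5g, a U5 gene of 116 bases, was listed at 0 in the first table and had 114, 38.4 and 119 estimated counts in the second. Rnu6, of 107 bases, was listed at 0 in the first table and at 0, 0 and 0.0902 in the second. Genes nearest to U6 held 4215, 4720 and 3205 estimated counts over 941 genes, and genes nearest to U5 457, 213 and 515 over 11 genes. For genes of the length of U5 and U6 the first table therefore holds no measured level.

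Replicate 3 stood apart for nearly all members. All 30 members with at least 10 counts were highest in replicate 3 on scaled log2 CPM. In 21 of them it was at least 2-fold above both other libraries, where 1.55% of all 15881 genes tested were. These 21 include all 16 U1 members of that level, Gm23444, Gm23472, Gm24265, Gm24407 and Rnu12. The 9 below 2-fold were all U2 members. The 30 genes hold 16 distinct sequences, so copies of a set count together here.

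The median over the 30 members of the log2 difference between 1 library and the mean of the other two was 2.01 in replicate 3, -0.75 in replicate 1 and -1.03 in replicate 2. Over all genes these medians were near 0 (-0.00, 0.02 and 0.00). Replicate 2 was at least 2-fold below both others for 4 of the 30 members (Gm24265, Gm24407, Gm26316 and Rnu12), where 2.22% of all genes were. The 25 other genes of 126 to 196 bases had a median log2 difference of -1.80 in replicate 2, so a low level there was not particular to the members. None of the 30 was that far above both others in replicate 1 or replicate 2, where 4.85% and 0.856% of all genes were, or below them in replicate 1 or replicate 3, where 3.22% and 1.39% were. In bulk RNA of a fraction, fewer nuclei and less RNA per nucleus cannot be told apart.

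Gene length moved with the difference. On the count scale the median rise in replicate 3 over the others was 7.66-fold for the 2 members of 141 bases, 4.89-fold for Rnu12 with 151 and 4.75-fold for the 9 of 164. It was 2.28-fold for the 11 of 191 bases. The 4 members of 165 bases, all nearest to Rnu1b genes, had 2.70-fold, and the 3 of 166 bases 4.63-fold, so genes of nearly equal length also differed. The 25 other genes of 126 to 196 bases, of which 20 are small nucleolar RNAs, had a median of 3.92-fold, against 0.996-fold for all 15851 other genes. Other short genes were therefore raised in replicate 3 by about as much as the snRNA members.

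On the TPM scale, which divides by the effective length of each library, the median log2 difference of the 30 members was 0.48 in replicate 3, -0.16 in replicate 1 and 0.04 in replicate 2. All other genes had a median of -0.44 in replicate 3 on that scale. By length, the TPM ratio of replicate 3 to the others was 2.14-fold at 141 bases, 1.48-fold at 164 and 0.824-fold at 191, and 1.47-fold for the 25 other short genes. The effective length of Rnu1a1 was 14.5 bases in replicate 3, against 6.52 and 5.76 bases in replicates 1 and 2. The shorter fragments of replicate 3 (187 bases, against 228 and 222) moved with these values, and their part in the result was not tested.

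**Figure D5:**
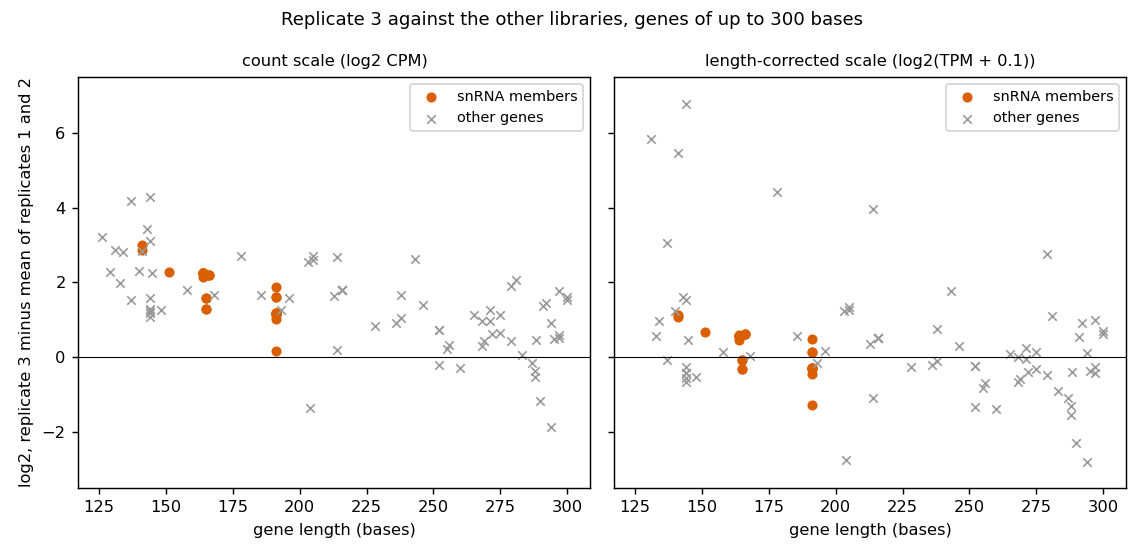
Log2 difference of replicate 3 from the mean of replicates 1 and 2 against gene length in bases, for the 30 snRNA members with at least 10 counts (filled) and 76 other genes of up to 300 bases (crosses), on log2 CPM (left) and on log2(TPM + 0.1) (right, where 2 other genes lie above the axis). On the left every member lies above 0 and the shortest lie highest, and on the right the members lie on both sides of 0.

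The genes of the proteins that build and use these RNAs, measured as nuclear RNA, did not show the split of replicate 3. They were not matched to the snRNA members for length. The 13786 other genes of over 1000 bases had a median of 0.982-fold in replicate 3 on the count scale. Of 111 annotated genes in 10 lists of spliceosomal and snRNA-maturation proteins, 110 had at least 10 counts. Their median was 6.88 TPM, and the list medians were 3.65 to 18.7 TPM. The median log2 CPM difference of replicate 3 from the others lay between -0.26 and 0.21 over the lists. In replicate 3, 1 of the 110 genes lay 2-fold or more under the other libraries (1.39% of all genes did), and none lay that far over them (1.55%). In replicate 1, 3 lay over (4.85% of all genes did) and 1 under (3.22%). In replicate 2, 1 lay under (2.22%) and none over (0.856%). The median of the Sm ring list was -0.94 in replicate 2.

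Among the proteins of the U1 particle, Snrnp70, which binds the first stem-loop of U1, averaged 111 ± 16.9 TPM (SD, n = 3 here and for the proteins that follow). Snrpa was at 18.7 ± 7.10 and Snrpc at 4.37 ± 1.13 TPM. In the U2 particle, Sf3b1, which contacts the branch site, averaged 85.8 ± 30.7 TPM, Sf3b2 38.9 ± 3.55 and Sf3b5 0.660 ± 0.229. The Sm ring proteins were lower, with Snrpe at 9.12 ± 5.43 and Snrpb at 8.47 ± 3.06 TPM, while Snrpn was listed at 0. Of the Lsm ring, which binds U6, Lsm4 was at 7.19 ± 2.12, Lsm8 at 6.67 ± 2.97 and Lsm5 at 1.76 ± 0.629 TPM. In the tri-snRNP, Sart1 was at 19.5 ± 4.12, Prpf8, its central scaffold, at 18.1 ± 2.27 and Txnl4a at 1.04 ± 0.121 TPM.

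Of the minor-spliceosome proteins, Zcrb1 was at 32.0 ± 9.83, Zrsr2 at 25.3 ± 4.74 and Snrnp25 at 1.69 ± 0.621 TPM. In the complex that starts snRNA transcription and its partners, Snapc3 was at 27.7 ± 6.61, Snapc4 at 19.3 ± 4.08 and Snapc2 at 1.84 ± 0.768 TPM. Among the Integrator subunits, which cut the 3′ ends of snRNA precursors, Ints6 was at 34.2 ± 12.9, Ints7 at 14.1 ± 2.32 and Ints5 at 2.62 ± 0.465 TPM. Of the export, assembly and import factors, the exportin Xpo1 was at 33.9 ± 10.8, the importin Kpnb1 at 31.0 ± 11.6 and Gemin6 at 0.443 ± 0.407 TPM. For U6, the La protein Ssb was at 30.4 ± 7.93, the 3′-end trimming enzyme Usb1 at 14.4 ± 2.62 and Larp7 at 3.43 ± 0.362 TPM. Protein genes of every list were thus detected, also in the lists for U5 and U6, whose RNAs have no measured level in the first table.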

How the data were processed

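Members and gene lists were chosen with earlier results of these data known. The first table holds expected counts per gene, TPM and a posterior standard deviation, a score here, all deposited by the authors and named in the file headers. The second table holds estimated counts and TPM per transcript, deposited by the authors. Reads were placed on mm10 with GENCODE M21, and the sources used here give no program version. Expected counts were used as deposited for shares and CPM of annotated genes, and rounded to whole numbers for library differences. Depth was 17345644 to 20947006 expected and 25334566 to 30641498 estimated counts.

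Library differences used TMM-scaled log2 CPM (edgeR 4.0.16, prior count 2) of genes with a mean of at least 10, and DESeq2 1.42.0 size factors as an alternative. On simulated data the 2-fold rule found 98% of 200 genes changed 4-fold in 1 library. Those genes were drawn from genes of higher counts, with a fixed spread and no length effect, so the value need not hold for the members. Sequences came from GENCODE M21 and were compared with edlib 1.3.9. Levels chose the members and carry no test; the planned sign-flip test between tables is not read for the same reason. A gene without a row in the second table counted as 0. Named genes are the Rnu genes, those with the highest counts or TPM, the extremes between tables and between libraries, those next to the limit, and the 2 highest and the lowest protein gene of each list.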

Additional observations from a re-analysis of the deposited data

Results flagged for a closer look

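Rnu5g had a mean of 90.3 estimated counts in the second table while the first table, from which the members were chosen, listed it at 0 in every library. It was picked out because a signal stood in a table that the levels above do not rest on, over the limit that a count of 0 allows. For the same reason 155 snRNA genes outside the 42 were picked out, each with more than 3 estimated counts in every library. Of these, 132 are shorter than the shortest member and 117 are nearest to U6. Within other genes, 66 lie on the strand of the host and 70 on the opposite strand. The sources used here do not say whether strand was used in counting.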

How the results depend on the processing

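No paired analysis was possible because the 3 libraries form a single group. Over 15 results, 61 of 72 alternatives were counted as the same as the main setting, 10 as moved and 1 as reversed. A value counted as the same could still lie far away. The median difference of replicate 1 was -0.75 in the main setting and -0.16 on TPM, and was counted as the same. The number of members was 380 with the second table's estimated counts in place of expected counts. The members' share was 13.9% on TPM. The minor-spliceosome share, 0.0912% on expected counts, was 1.06% in the second table, 0.237% on TPM and 0.790% among Rnu-named genes alone. Members at least 2-fold below both others in replicate 1 numbered 2 with a mean limit of 1 and 1 in the second table, against 0, and those above in replicate 2 numbered 2 and 1, against 0. The median difference of replicate 2 turned to 0.037 on TPM, and that of replicate 3 was 0.48, an alternative chosen after seeing the data; the cause was not tested. Leaving out each library in turn gave 42 to 45 members, a share of 0.170 to 0.309%, a minor share of 0.0712 to 0.123%, a log2 table ratio of -0.26 to -0.17, and 10 to 13 members higher and 0 lower in the second table. On TPM the log2 table ratio was -3.29, against -0.23 on counts, and was also counted as the same. The 7 counts of Rnu12 in replicate 2 carry a wide counting interval, and the reason for the low count was not tested.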
